A study of Mus musculus with 12 samples.

Results

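Sphingosine-1-phosphate (S1P) is a lipid signal made, exported, sensed and destroyed by a small set of genes, and 9 of them were followed here in mouse natural killer (NK) cells: the exporter Spns2, the receptors S1pr1, S1pr4 and S1pr5, the kinases Sphk1 and Sphk2, the lyase Sgpl1, the phosphatase Sgpp1 and the transcription factor Klf2. They are 9 of the 55487 features of the expression table, matched by gene symbol. The set was chosen by a measured value, the difference of Spns2 between reporter-positive and reporter-negative cells, which is among the largest of all genes, so that contrast is described for all 9 genes without a test, and Spns2 is given without a test throughout.

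All 12 samples were NK cells of the strain B6.129S4-Ifngtm3.1Lky/J, in which the Ifng locus (interferon gamma) carries a fluorescent reporter, YFP, and which has the genotype label mut/mut in every group, controls included. All were primed with IL-15 (written HD IL-15 in the labels). The 3 groups of 4 samples were unstimulated cells, reporter-negative cells (YFP-) after 6 h of anti-NK1.1, and reporter-positive cells (YFP+) after the same stimulus. Each group holds samples labelled f2, m2, m3, m4, and values below follow that order. The labels do not say whether these are separate mice, so p-values measure the spread between samples, which may be partly technical. The reporter reads transcription of its own gene, Ifng, whose level was 1.97 ± 0.09, 5.50 ± 0.24 and 8.36 ± 0.08 log2 CPM (SD, n = 4) in unstimulated, YFP- and YFP+ samples, where CPM is the read count scaled to the library total (counts per M reads). YFP- samples were therefore stimulated cells with a lower, not an absent, Ifng transcript level in bulk. The level in single YFP- cells cannot be told from these values.

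As background, S1P is high in blood and lymph and low inside tissues, and lymphocytes follow that gradient out of tissues through S1P receptors. The kinases phosphorylate sphingosine inside the cell, SPNS2 carries the product out, phosphatases return it to sphingosine, and the lyase cleaves it irreversibly. NK cells are known for using S1PR5, whose gene depends on the transcription factor T-bet, while KLF2 maintains S1pr1 in T cells, and the surface protein CD69 binds S1PR1 protein and removes it from the membrane. SPNS2 is best known from endothelial cells, which supply S1P to lymph.

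The 4 genes with the clearest patterns below are shown by the bases just before their RefSeq start, because all 4 were lower in YFP- than in unstimulated samples, and in YFP+ samples Klf2, S1pr5 and S1pr4 were lower still while Spns2 was not. RefSeq windows on GRCm38 were found for 8 of the 9 genes. Each line gives the 250 bases before the start, 5′ to 3′ on the strand of the gene, with CACCC or its reverse complement GGGTG (the box bound by KLF factors) in capitals, and in Spns2 also AAAGGTCA (the NR4A element). The positions are chr8:72318812-72319061 (plus strand) for Klf2, chr9:21248444-21248693 (minus) for S1pr5, chr10:81500138-81500387 (minus) for S1pr4 and chr11:72475028-72475277 (minus) for Spns2.
Klf2: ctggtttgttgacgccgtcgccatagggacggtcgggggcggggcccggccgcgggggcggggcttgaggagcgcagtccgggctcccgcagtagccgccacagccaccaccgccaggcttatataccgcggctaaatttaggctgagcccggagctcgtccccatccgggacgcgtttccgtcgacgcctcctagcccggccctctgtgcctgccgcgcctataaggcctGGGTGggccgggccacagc
S1pr5: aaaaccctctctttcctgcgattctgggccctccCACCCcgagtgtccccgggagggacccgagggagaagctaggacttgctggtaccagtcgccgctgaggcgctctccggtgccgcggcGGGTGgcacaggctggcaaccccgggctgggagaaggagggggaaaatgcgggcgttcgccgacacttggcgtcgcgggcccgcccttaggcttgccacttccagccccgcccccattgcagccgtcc
S1pr4: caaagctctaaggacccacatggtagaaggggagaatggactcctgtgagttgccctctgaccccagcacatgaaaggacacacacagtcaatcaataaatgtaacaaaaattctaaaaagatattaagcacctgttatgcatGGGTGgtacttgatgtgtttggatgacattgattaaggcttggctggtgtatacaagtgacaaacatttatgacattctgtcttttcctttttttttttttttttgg
Spns2: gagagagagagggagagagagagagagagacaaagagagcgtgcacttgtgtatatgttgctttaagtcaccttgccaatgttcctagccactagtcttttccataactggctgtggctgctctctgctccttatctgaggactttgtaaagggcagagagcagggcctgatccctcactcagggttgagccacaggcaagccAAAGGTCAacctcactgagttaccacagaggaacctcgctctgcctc
CACCC occurred 1 time in the Klf2 window, 2 times in S1pr5, 1 time in S1pr4 and 0 times in Spns2, on either strand. In the windows of the other genes, CACCC occurred 0 to 4 times for Sphk1 and 1 or 2 times for Sphk2. It occurred 0 times for Sgpl1 and Sgpp1. It is common: 52% of all 32851 windows of this length hold it. AAAGGTCA occurred 1 time in the Spns2 window and 0 times in the other 3, and 1.34% of all windows hold it. GGAAA (NFAT core) occurred 1, 2, 1 and 1 times in the Klf2, S1pr5, S1pr4 and Spns2 windows, against 55.6% of all windows with at least 1. The NF-kappaB core motif, which can overlap GGGTG, was found in the Klf2, S1pr5 and Spns2 windows and not in S1pr4, against 45.8%. GCGNGGGCG (EGR) occurred 1 time in Klf2 and 0 times in the other 3, against 4.7%, and TGANTCA (AP-1) in none of the 4, against 6.75%. The Sphk1 windows, not printed, held TGANTCA 0 or 1 times each. The Spns2 window lies before a RefSeq start that is 14877 bp downstream of the start of the GENCODE gene, so it is not the only possible start. A match is a string of letters and not a shown binding site.

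Library totals ran from 32.1 to 54.2 M reads, and 3 reads, the fewest taken as detection, correspond to 0.0553 to 0.0933 CPM (counting error only). Features of ribosomal RNA type took between 27.4 and 35.3% of unstimulated reads, between 15.9 and 30.3% of YFP- reads and between 13.7 and 29.8% of YFP+ reads, with the highest share of each stimulated group in m3. The 11 NK markers (Ncr1, Klrd1, Nkg7 and others) were all well expressed, with summed levels between 19491 and 23523 CPM (unstimulated), 22607 and 27392 (YFP-), and 31841 and 44222 (YFP+). The markers did not move together. Gzmb, the largest part of the YFP+ sum, had means of 6165, 12849 and 24088 CPM in the same order. Ncr1 had 247, 222 and 123 CPM, Klrd1 had 385, 270 and 165, and Nkg7 had 2515, 1835 and 2864. Markers of other cells that use S1P were low or mixed. Of 8 endothelial markers 0 passed the filter on low values, with summed levels of 0.201 to 0.740, 0.161 to 0.993 and 0.311 to 0.498 CPM, and Cdh5 had at most 2 reads. Of 8 T cell markers 3 passed, and their summed level was 22.2 to 34.0, 50.5 to 77.2 and 60.4 to 101.1 CPM, most of it Cd3d, Cd6 and Trac, which NK cells can also transcribe. Cd3e had 4 to 31, 16 to 66 and 0 to 3 reads, and Cd4, Cd8a and Cd8b1 at most 7. Of 6 B cell markers 2 passed, Ighm (mean 150, 235 and 108 CPM) and Cd79b, with sums of 131 to 189, 174 to 324 and 57.1 to 168 CPM, while Ms4a1 and Pax5 had at most 2 reads. The part of these T and B cell sums in the results below was not tested. Of 8 myeloid markers only Cd14 passed, and the sums were 1.29 to 2.92, 0.469 to 1.40 and 0.266 to 0.684 CPM. Of 9 erythroid and platelet markers 0 passed, with sums of at most 0.728 CPM. The samples are bulk RNA, so fewer cells with a transcript and less of it per cell cannot be told apart.

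Spns2, the exporter (ENSMUSG00000040447, GRCm38 chr11:72451638-72489904, minus strand, protein coding), was present in all 12 samples with 77 to 697 reads. In unstimulated samples its log2 CPM was 2.86, 3.08, 2.71 and 3.35 (mean 3.0 ± 0.28 SD, n = 4). In YFP- samples it was 2.02, 2.17, 0.84 and 1.36 (1.59 ± 0.62). In YFP+ samples it was 3.33, 3.69, 3.82 and 3.64 (3.62 ± 0.21). The 4 YFP- samples lay below every sample of the other groups, whereas the YFP+ and unstimulated ranges touched, at 3.33 and 3.35. In mean CPM the levels were 8.11, 3.21 and 12.4. The difference of YFP+ over YFP- that brought the gene to attention was 2.02 in log2 (SE 0.26). YFP- differed from unstimulated by -1.41 (SE 0.26) and YFP+ from unstimulated by 0.62 (SE 0.26), with YFP+ above the unstimulated sample of the same label in 4 of 4 cases, by 0.29 to 1.11. In log2, most of the distance between the sorted fractions lay on the YFP- side of the unstimulated level. In mean CPM, the unstimulated level of 8.11 stood about midway between 3.21 and 12.4.

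**Figure D1:**
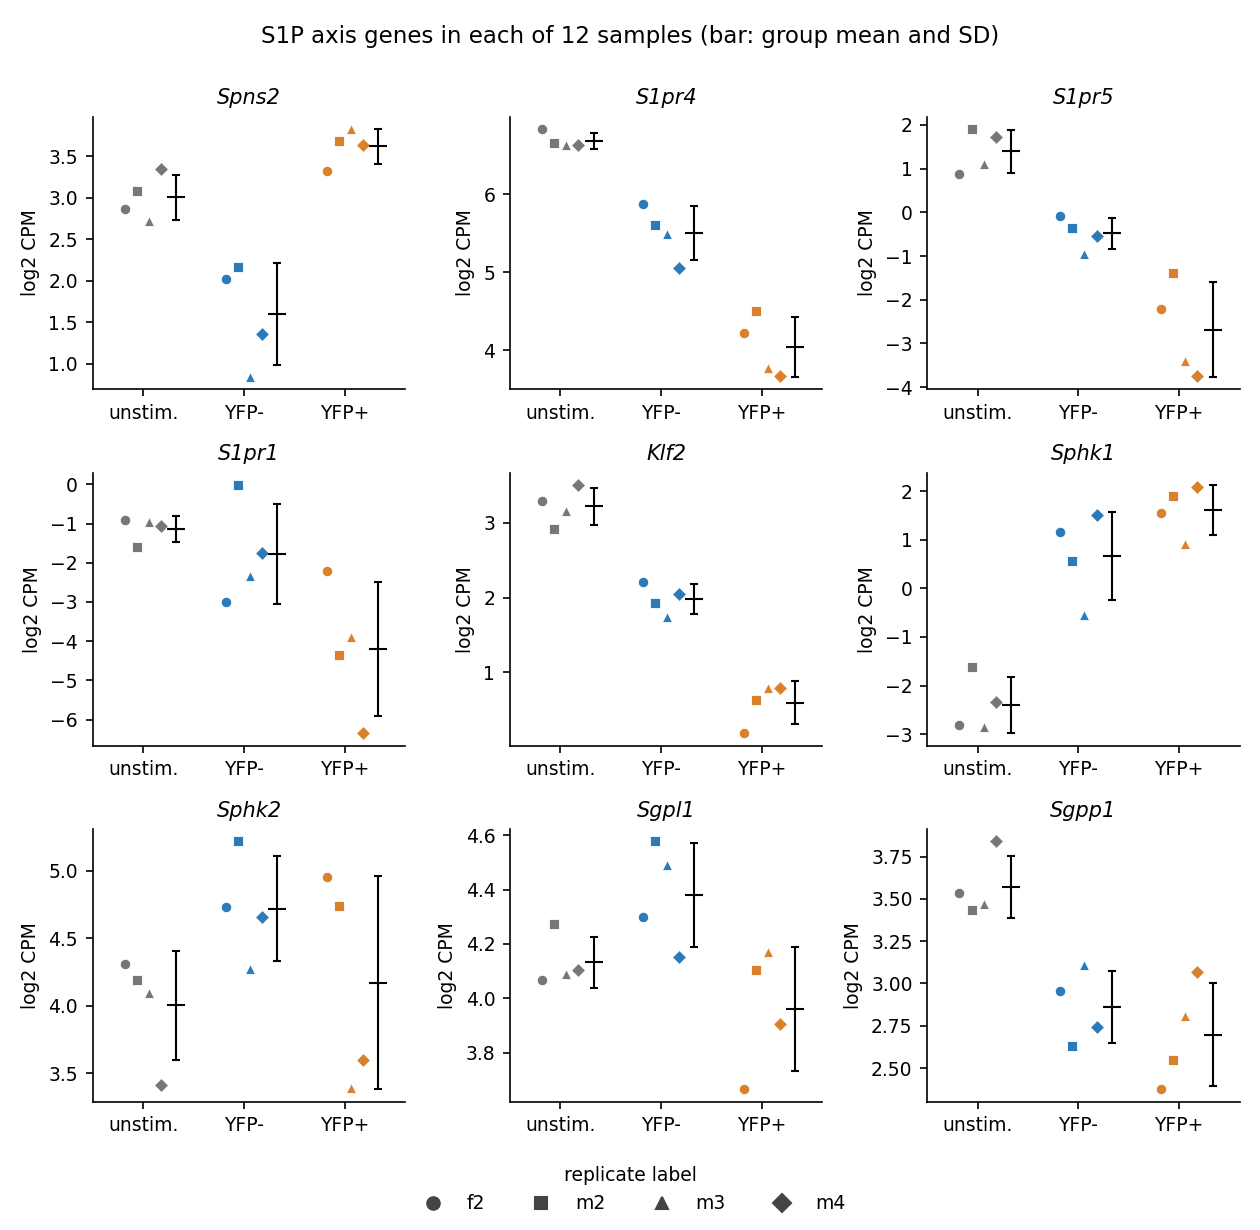
Log2 CPM of the 9 genes in each sample, one panel per gene with its own vertical axis; symbols mark the replicate label, and the black bars beside the points are the group mean and SD of 4 samples. Spns2 is lowest in YFP- (mean 1.59), while S1pr4, S1pr5 and Klf2 step down from unstimulated to YFP- to YFP+ and Sphk1 is lowest in unstimulated samples (mean -2.40).

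As a description of the shape, 9 of the 12364 genes kept (0.0728%) were lower in YFP- than in both other groups by at least 1 in log2. This grouping was chosen after the values were seen and uses the difference for which Spns2 was picked, so nothing is read from the share. Besides Spns2 the genes were Capn5, Vldlr, Fhad1, Mfsd4b4, Svip, Cyp3a13, Tet1 and Gm35692. Only Spns2 and Vldlr among them had a higher mean in YFP+ than in unstimulated samples, by 0.62 and 0.24 in log2. For Cyp3a13, Tet1 and Gm35692 the YFP+ range lay below the unstimulated one and overlapped that of YFP-. Their YFP+ means were low, at -3.18, -3.24 and -2.08 log2 CPM. Svip ranges also overlapped between YFP+ and YFP-, and those of Vldlr between YFP- and unstimulated. The 5 genes with the profile nearest to Spns2 over the 12 samples, by root mean square difference of centred log2 CPM among named genes with a mean of at least 2, were Cdh23 (0.556), Atp11a (0.562), Vegfa (0.579), Tle3 (0.590) and Slc45a4 (0.594). Vegfa, a vascular growth factor gene, had 4.47 ± 0.14, 3.95 ± 0.25 and 5.07 ± 0.46 log2 CPM, and Tle3, a transcriptional corepressor gene, 5.69 ± 0.15, 4.67 ± 0.26 and 5.44 ± 0.26. All 5 dipped less in YFP- than Spns2 did.

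The last exon of Spns2 overlaps that of Mybbp1a, on the opposite strand, over 131 bp (3.21% of the Spns2 exon length), and the library kit does not mark strand. Mybbp1a, a nucleolar protein gene, did not share the dip. Its log2 CPM was 5.05 ± 0.23, 6.40 ± 0.13 and 6.89 ± 0.08, and it rose in YFP- by 1.35 and in YFP+ by 1.84 against unstimulated samples (limma adjusted p = 2.7e-06 and 5.7e-08). How reads in the shared stretch were assigned is not given in the sources used here.

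**Figure D2:**
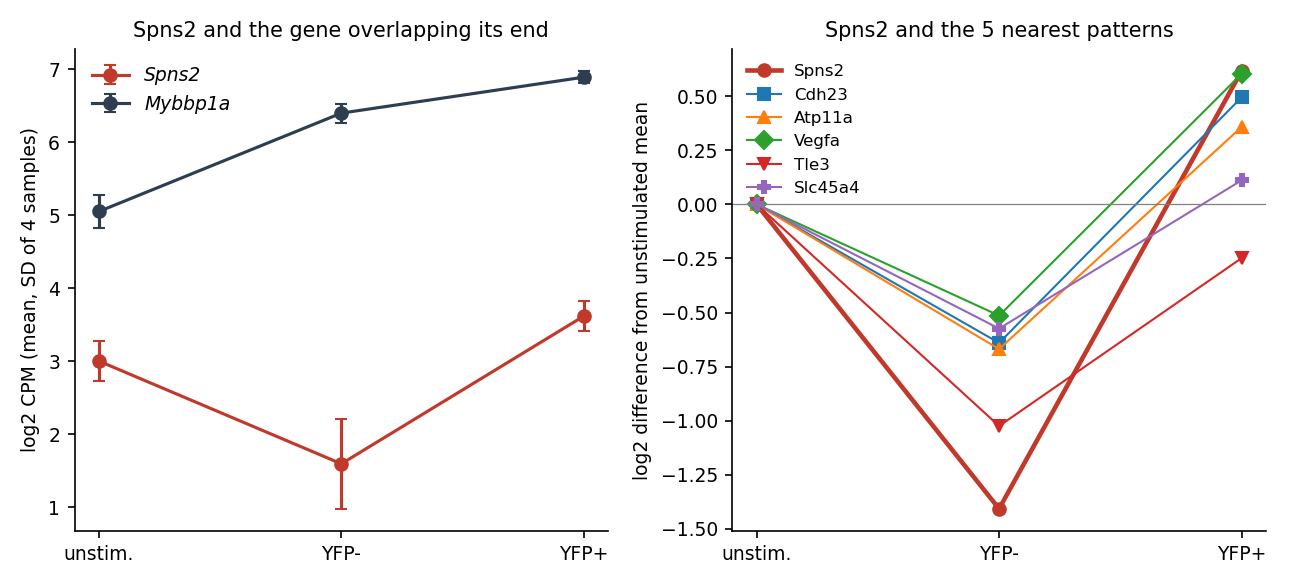
Left, mean log2 CPM with SD (4 samples) of Spns2 and of Mybbp1a, whose exon overlaps the end of Spns2; right, group means of Spns2 and of the 5 genes with the nearest profile, as log2 difference from each gene's unstimulated mean. Mybbp1a stands higher in YFP- than in unstimulated samples where Spns2 stands lower, and Spns2 has the deepest YFP- value of the 6 lines (-1.41).

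The tests of the other genes ask how each stimulated fraction differed from unstimulated cells, and both comparisons use the same 4 unstimulated samples. Of the 9 genes, 8 passed the filter (log2 CPM above 0 in at least 4 samples) and 7 entered the comparisons. S1pr5 passed the filter only through its 4 unstimulated samples and Sphk1 only through stimulated ones, so these 2 had to differ, and they are left out of the count; their p-values below come from a fit without the filter (37074 genes). In limma, with Benjamini-Hochberg adjustment over 12364 genes, 3 of the other 5 had an adjusted p under 0.05 in YFP- against unstimulated, 0 higher and 3 lower (S1pr4, Klf2, Sgpp1). Of all genes tested 51.1% were called in that comparison, 30.2% higher and 20.9% lower. In YFP+ against unstimulated the same 3 were called, again lower, where 60.8% of all genes were called, 27.5% higher and 33.3% lower. The count of 3 of 5 is close to these shares and is no result about the set. Of all called genes 59.1% were higher in YFP- against unstimulated as deposited, but 49.9% after centring each sample on its median and 47.1% with ribosomal features left out of the totals, and for YFP+ against unstimulated the shares were 45.2%, 52.1% and 36.8%. The median log2 difference over all genes, 0.14 and -0.03 in these 2 comparisons and -0.19 for YFP+ over YFP-, ranged with the scaling from -0.05 to 0.14, -0.22 to 0.11 and -0.20 to 0.07. The changes called among the 9 genes were larger than these shifts. For YFP+ over YFP-, the Spns2 range lay above and the S1pr4, S1pr5 and Klf2 ranges below, without touching. The share of all genes with such ranges was not computed, so no excess is read from this. Of all genes 21.8% were called in this comparison, by limma adjusted p, which is a different measure.

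**Figure D3:**
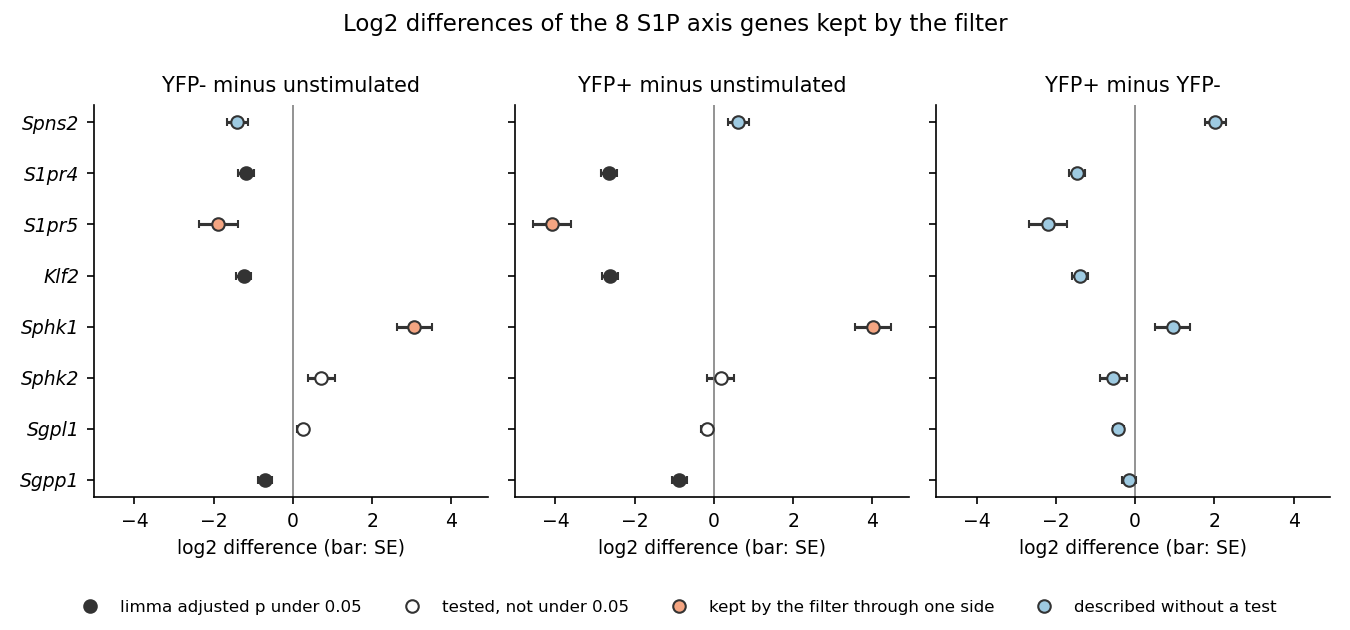
Log2 differences with SE of the 8 genes that passed the filter, for the 3 pairs of groups; black points have a limma adjusted p under 0.05, white points were tested and did not pass, orange points are the genes kept by the filter through one side only, and blue points are described without a test. S1pr4 (-2.65) and Klf2 (-2.63) lie at about the same distance below 0 in YFP+ minus unstimulated, where Spns2 lies above 0.

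S1pr4, the receptor gene typical of blood cells (ENSMUSG00000044199, chr10:81497747-81500132, minus strand), was by far the most abundant S1P receptor transcript before stimulation and fell in steps. Its log2 CPM was 6.84, 6.66, 6.63 and 6.63 in unstimulated, 5.87, 5.61, 5.49 and 5.05 in YFP-, and 4.22, 4.50, 3.77 and 3.67 in YFP+ samples. No range touched another. Group means were 103, 46.4 and 16.9 CPM. YFP- was lower than unstimulated by -1.18 (SE 0.20, limma adjusted p = 0.00028) and YFP+ by -2.65 (limma adjusted p = 1.1e-07), and YFP+ differed from YFP- by -1.46 (SE 0.20).

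S1pr5, the receptor gene best known in NK cells (ENSMUSG00000045087, chr9:21242912-21248443, minus strand), was low and followed the same steps. Its log2 CPM was 0.87, 1.91, 1.1 and 1.71 in unstimulated samples (69 to 142 reads), -0.09, -0.35, -0.95 and -0.55 in YFP- (22 to 41 reads) and -2.21, -1.39, -3.39 and -3.75 in YFP+ (2 to 20 reads). No range touched another, although m3 and m4 of YFP+ held only 3 and 2 reads. The difference from unstimulated was -1.88 in YFP- (SE 0.48) and -4.08 in YFP+, with limma adjusted p = 0.0083 and 1.8e-06 in the fit without the filter. With a pseudocount of 1 CPM the differences were -1.09 and -1.64, so their size depends on how low values are treated. Mean levels were 2.74, 0.719 and 0.180 CPM.

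S1pr1, the receptor gene of lymphocyte egress (ENSMUSG00000045092, chr3:115710433-115715072, minus strand), was near the detection limit in all groups and failed the filter. It had 20, 12, 20 and 15 reads in unstimulated, 5, 48, 8 and 14 in YFP- and 10, 2, 2 and 0 in YFP+ samples. The single sample m2 held 48 of the 75 YFP- reads. The 0 reads of YFP+ m4 allow a level of up to 0.0933 CPM. In a fit without the filter (37074 genes) the log2 difference from unstimulated was -3.06 in YFP+ (limma adjusted p = 0.0091) and -0.64 in YFP- (limma adjusted p = 0.67). Mean levels were 0.451, 0.389 and 0.0741 CPM.

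The remaining receptor genes, S1pr2 and S1pr3, are not among the 9 but change the picture of the family. S1pr3 (chr13:51408639-51422797, plus strand) had 4, 20, 11 and 1 reads in unstimulated, 284, 320, 237 and 402 in YFP- and 515, 722, 495 and 477 in YFP+ samples, or -2.58 ± 1.59, 2.72 ± 0.24 and 3.70 ± 0.21 log2 CPM. It passed the filter only through stimulated samples. The differences from unstimulated were 5.30 in YFP- (SE 0.56) and 6.28 in YFP+, with limma adjusted p = 3.5e-07 and 1.3e-08 in the fit without the filter, and 2.63 and 3.52 with a pseudocount of 1 CPM. Its antisense neighbour Gm32834 had 0 reads. S1pr2 (chr9:20962361-20976781, minus strand) had 2.7, 2.75, 2.51 and 3.04 log2 CPM in unstimulated, 4.62, 5.18, 4.19 and 4.84 in YFP- and 4.30, 4.47, 2.94 and 3.35 in YFP+ samples. It rose by 1.96 in YFP- (limma adjusted p = 0.00017) and by 1.01 in YFP+ (limma adjusted p = 0.012), a call lost without f2 (0.82, limma adjusted p = 0.088) or without m2 (0.78, limma adjusted p = 0.065). The m3 and m4 samples of YFP+ were the low ones.

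Levels of different genes are comparable only per length, here as CPM per kb of exon. S1pr4 stood at 43.3, 19.4 and 7.08 CPM per kb in unstimulated, YFP- and YFP+ samples, S1pr5 at 1.09, 0.288 and 0.0718, S1pr1 at 0.148, 0.128 and 0.0243, S1pr2 at 0.850, 3.38 and 1.87, and S1pr3 at 0.0525, 1.49 and 2.93. The 5 receptors together went from 45.4 ± 2.92 to 24.7 ± 4.42 and 12.0 ± 2.65 CPM per kb (SD, n = 4). S1pr4 made up 95.2 ± 1.12%, 78.2 ± 6.25% and 58.6 ± 3.67% of that sum, with ranges of 94.3 to 96.5%, 70.6 to 83.3% and 53.5 to 61.5% that did not touch. S1pr3 made up 0.117%, 6.25% and 25.6% on average, and S1pr2 1.88%, 13.9% and 15.0%. S1pr4 remained the leading receptor transcript in every sample.

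**Figure D4:**
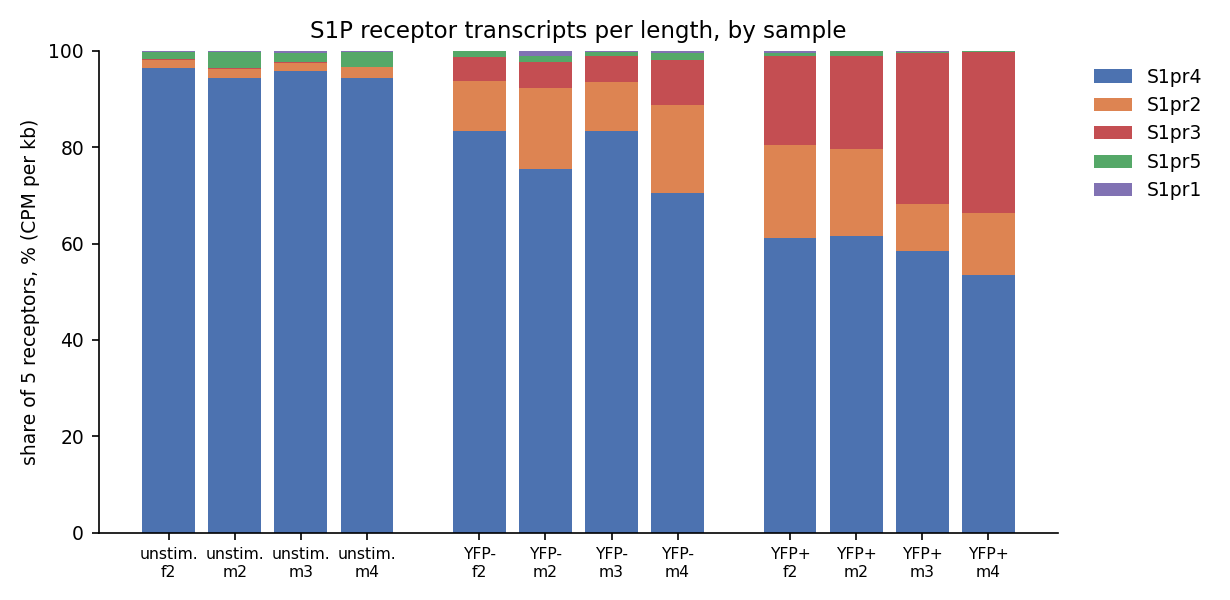
Share of each of the 5 S1P receptor genes in their summed CPM per kb, in percent, one bar per sample. The S1pr4 share shrinks from 94.3 to 96.5% in unstimulated samples to 53.5 to 61.5% in YFP+ samples, and the S1pr3 share grows to between 18.4 and 33.4%.

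Of the kinases, Sphk1, the inducible cytosolic enzyme (ENSMUSG00000061878, chr11:116530925-116536674, plus strand), rose from near the detection limit. It had 5, 12, 5 and 6 reads in unstimulated, 98, 72, 29 and 138 in YFP- and 143, 201, 68 and 135 in YFP+ samples. In log2 CPM the means were -2.40 ± 0.58, 0.66 ± 0.90 and 1.61 ± 0.51, and every stimulated sample lay above every unstimulated one. The differences from unstimulated were 3.07 in YFP- (SE 0.45) and 4.01 in YFP+, with limma adjusted p = 3.7e-05 and 6.9e-07 in the fit without the filter, and 1.17 and 1.78 with a pseudocount of 1 CPM. YFP+ exceeded YFP- by 0.95 (SE 0.45), in 4 of 4 labels, with overlapping ranges. The m3 sample was the lowest of each stimulated group. An antisense transcript, Gm29292, overlaps 192 bp of Sphk1 exons and had 0 to 3 reads.

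Sphk2, the isoenzyme found largely in the nucleus and other organelles (ENSMUSG00000057342, chr7:45709467-45718002, minus strand), did not pass the test. Its log2 CPM was 4.31, 4.19, 4.10 and 3.41 in unstimulated, 4.73, 5.22, 4.27 and 4.65 in YFP- and 4.96, 4.74, 3.39 and 3.59 in YFP+ samples. The YFP- samples exceeded unstimulated samples by 0.72 (SE 0.34, limma adjusted p = 0.094), and YFP+ by 0.17 (limma adjusted p = 0.69). Within YFP+, f2 and m2 stood above m3 and m4, which also had higher shares of ribosomal reads (29.8 and 23.1% against 13.7 and 16.3%); the part of these shares in the result was not tested beyond leaving such reads out of the totals, which gave -0.02 for YFP+ against unstimulated. Sphk2 exons overlap those of Rpl18 over 373 bp and of Dbp over 539 bp (8.97% and 13.0% of its exon length), both on the opposite strand, and Rpl18, a ribosomal protein gene, is abundant (957 to 1079 CPM as group means), so Sphk2 values are uncertain to that extent. Per length, Sphk2 had 3.95, 6.50 and 4.83 CPM per kb against 0.0397, 0.375 and 0.665 for Sphk1. The share of Sphk1 in the 2 kinases was 1.05 ± 0.51%, 5.47 ± 2.85% and 13.8 ± 6.77% (SD, n = 4), with ranges of 0.574 to 1.5%, 2.93 to 8.88% and 7.58 to 23.3%. Sphk2 thus remained the more abundant kinase transcript in every sample.

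Of the enzymes that remove S1P, the phosphatase gene fell and the lyase gene showed no difference past the test. Sgpp1 (ENSMUSG00000021054, chr12:75714249-75735729, minus strand) had 3.53, 3.44, 3.47 and 3.84 log2 CPM in unstimulated, 2.96, 2.63, 3.11 and 2.74 in YFP- and 2.37, 2.55, 2.81 and 3.07 in YFP+ samples. The stimulated groups lay below all unstimulated samples and overlapped each other. It fell, by log2 differences of -0.71 in YFP- (SE 0.18, limma adjusted p = 0.0046) and -0.87 in YFP+ (limma adjusted p = 0.00077), and YFP+ differed from YFP- by -0.16 (SE 0.18), with the sign turned by centring on the median (0.10) or quantile normalization (0.16). Sgpl1, the lyase (ENSMUSG00000020097, chr10:61098642-61147703, minus strand), had means of 4.13 ± 0.09, 4.38 ± 0.19 and 3.96 ± 0.23 log2 CPM with overlapping ranges. Its differences from unstimulated were 0.25 in YFP- (limma adjusted p = 0.17) and -0.17 in YFP+ (limma adjusted p = 0.32), and YFP+ differed from YFP- by -0.42 (SE 0.15).

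Klf2, the quiescence and trafficking factor (ENSMUSG00000055148, chr8:72319033-72321656, plus strand), fell in the same steps as S1pr4. Its log2 CPM was 3.30, 2.92, 3.16 and 3.51 in unstimulated, 2.21, 1.93, 1.75 and 2.05 in YFP- and 0.18, 0.63, 0.79 and 0.79 in YFP+ samples. No range touched another. It was lower than unstimulated by -1.24 in YFP- (SE 0.19, limma adjusted p = 0.00015) and by -2.63 in YFP+ (limma adjusted p = 8.7e-08), and YFP+ differed from YFP- by -1.39 (SE 0.19). Klf2, S1pr4 and S1pr5 were among 472 genes (3.82% of those kept) that went down by at least 1 in log2 at each step from unstimulated to YFP- to YFP+. The pattern was thus not rare, and 88 genes (0.712%) went up at each step. S1pr5 was kept only through its unstimulated samples, so it had to fall, and the 472 were not screened for other such genes. With a pseudocount of 1 CPM the step from YFP- to YFP+ was -0.55 for S1pr5, -0.98 for Klf2 and -1.41 for S1pr4. The grouping was chosen after the values were seen.

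Further genes of the pathway were taken from 5 lists, whose called shares stand beside 51.1% of all genes in YFP- and 60.8% in YFP+. Of 9 other S1P transport and receptor genes 5 were kept. Leaving out S1pr3, 2 of 4 (50%) rose and 0 fell in each comparison, S1pr2 and the transporter gene Abcc1 (0.96 in YFP-, 0.79 in YFP+, limma adjusted p = 6.6e-05 and 0.00019). The median log2 difference of the 5 was 0.96 in YFP- and 0.79 in YFP+. These medians include S1pr3, which had to be higher, so they are not set against those of all genes.

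Of 22 genes of sphingoid base and ceramide supply, 14 were kept. The list mixes roles, with ceramide synthase and Ormdl genes among them, so its rises do not measure the supply of substrate to the kinases. In YFP- 8 rose and 2 fell, and in YFP+ 6 rose and 2 fell, with medians of 0.67 and 0.45. The called shares were 71.4% in YFP- and 57.1% in YFP+, against 51.1% and 60.8% of all genes. The alkaline ceramidase gene Acer3, whose product releases sphingosine, rose by 1.55 and 2.01 (limma adjusted p = 3.1e-06 and 1.0e-07). The ceramide synthase gene Cers6 rose by 1.51 and 1.70 (limma adjusted p = 2.1e-06 and 2.2e-07), and Sptlc1, a subunit of the enzyme that begins sphingolipid synthesis, by 1.46 and 1.31 (limma adjusted p = 0.00075 and 0.0011). Kdsr, of the next step, rose by 1.30 in YFP- (limma adjusted p = 0.0024). Cers4 and the small subunit gene Sptssa were the 2 that fell in each comparison, with values for Cers4 of -0.63 and -1.50 (limma adjusted p = 0.0029 and 1.2e-06). The YFP- count of 10 called genes dropped to 6 without m4.

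The sphingomyelin and glycolipid branch, which competes for ceramide, had no called rise. Of 12 genes 9 were kept, 3 fell in YFP- and 5 in YFP+, with medians of -0.49 in each. The called shares, 33.3% and 55.6%, stand beside 51.1% and 60.8% of all genes. Smpd1, acid sphingomyelinase, fell (-2.18 and -3.04, limma adjusted p = 0.0018 and 8.1e-05). Ugcg, which makes glucosylceramide, fell (-1.59 and -2.31, limma adjusted p = 7.9e-06 and 1.0e-07). The ceramide kinase gene Cerk fell (-0.52 and -1.35, limma adjusted p = 0.015 and 6.9e-06), the YFP- call being lost without m3 (limma adjusted p = 0.06) or m4 (0.12), and B4galt6 fell by 1.18 in YFP+ (limma adjusted p = 0.0058). The count for YFP- rose to 6 after centring on the median or without ribosomal features and to 5 with quantile normalization.

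Of 16 genes that couple S1P receptors to the cell 14 were kept, 7 fell in each comparison, and 1, Rhoa, rose in YFP- (0.38, limma adjusted p = 0.023), a call lost without m2 or m4 (limma adjusted p = 0.08 and 0.15) and after centring on the median (0.24, limma adjusted p = 0.07). Medians were -0.39 in YFP- and -0.59 in YFP+, and the called shares of 57.1% and 50% were near or below those of all genes (51.1% and 60.8%). The arrestin genes Arrb1 and Arrb2, whose products desensitise receptors, fell, with differences of -1.67 and -0.99 in YFP- (limma adjusted p = 1.4e-06 and 0.0015) and of -3.25 and -2.57 in YFP+ (limma adjusted p = 1.6e-09 and 2.3e-07). Gnai2, the Gi subunit used by these receptors, fell (-1.35 and -2.18, limma adjusted p = 0.00013 and 9.0e-07). Arhgef1, an exchange factor gene downstream of the G12 family, fell (-1.06 and -1.32, limma adjusted p = 0.00011 and 8.8e-06).

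In the list of Klf2 regulators and homing genes, 15 of 16 were kept, and 5 rose and 4 fell in YFP-, against 4 and 8 in YFP+, with medians of -0.07 and -0.43. The called shares were 60% and 80%, against 51.1% of all genes in YFP- (30.2% higher, 20.9% lower) and 60.8% in YFP+ (27.5% higher, 33.3% lower). Zeb2, a factor that promotes NK maturation, rose by 2.89 and 2.72 (limma adjusted p = 4.7e-08 and 2.7e-08), and Tbx21, which encodes T-bet, by 1.28 and 1.34 (limma adjusted p = 6.5e-05 and 2.2e-05). Klf4 rose by 2.71 and 2.55 (limma adjusted p = 1.9e-05 and 1.5e-05), from a low mean of 0.64 CPM in unstimulated samples. The size of its rise depended on the setting, from 1.585 to 3.145 in YFP- and 1.464 to 2.824 in YFP+. Foxo3 fell (-1.61 and -2.43, limma adjusted p = 3.5e-06 and 3.4e-08), and so did Klf3 (-0.85 and -2.61, limma adjusted p = 0.044 and 1.2e-05), its YFP- call being lost when any 1 of f2, m2, m3 or m4 was left out (limma adjusted p = 0.056, 0.1, 0.11 and 0.084). Cd69 had 6.86, 6.97, 6.85 and 6.83 log2 CPM in unstimulated, 8.62, 8.48, 8.18 and 8.75 in YFP- and 8.29, 8.11, 7.45 and 8.08 in YFP+ samples. It rose by 1.63 and 1.1 against unstimulated (limma adjusted p = 5.1e-06 and 6.9e-05), at mean levels of 117, 367 and 258 CPM.

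**Figure D5:**
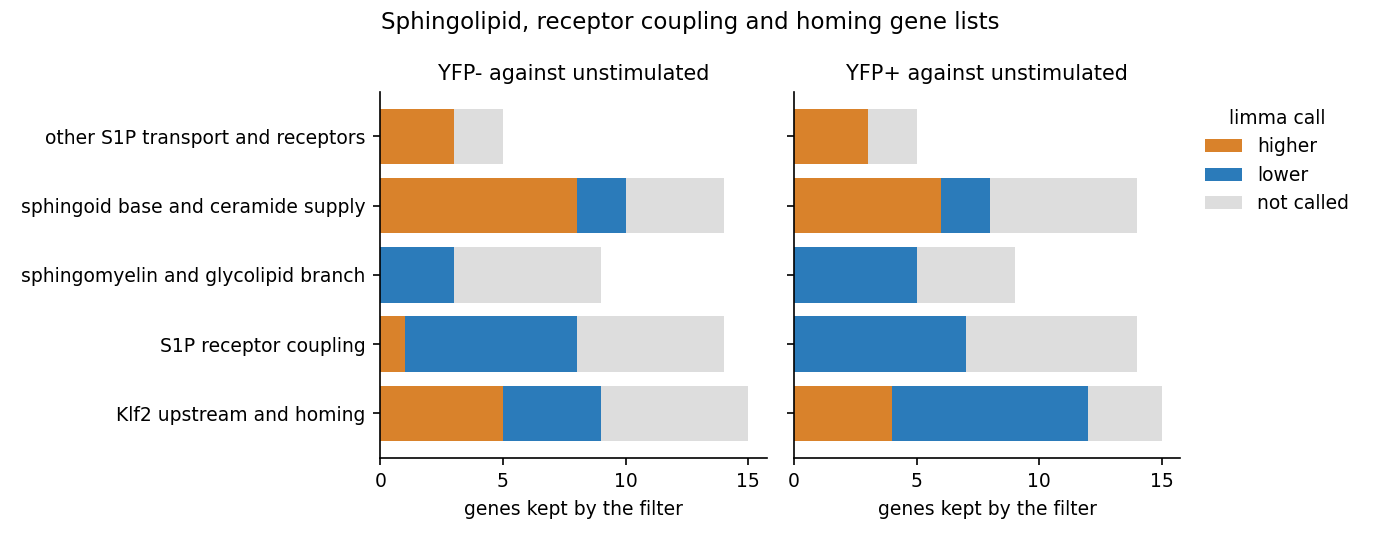
Number of kept genes of each list with a limma adjusted p under 0.05, higher or lower than in unstimulated samples, and the number not called, for YFP- (left) and YFP+ (right). No gene of the sphingomyelin and glycolipid branch was called higher in either comparison, and no other S1P transport or receptor gene was called lower; the 3 called higher there include S1pr3, which passed the filter only through stimulated samples.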

How the data were processed

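RNA-seq was made from 12 samples with the SMARTer Ultra Low kit and read as paired ends, per the labels' protocols. The submitters' processing notes name bcl2fastq, STAR 2.7.9a, Subread, featureCounts 2.0.3 and GRCm38; the annotation and strand setting are not given in the sources used here. Values are moderated log2 CPM as the authors deposited them, in 1 table. Repeated lines were dropped (55774 to 55487 features). Whole reads were recovered for 100% of values (within 0.01 reads), for depth, CPM and the alternatives that need reads; 0 per-sample columns belonged to no sample. Positions and exon lengths come from GENCODE M21.

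Genes above 0 log2 CPM in at least 4 samples (12364) were fitted over all 12 samples in limma 3.58.1 (R 4.3.3; lmFit, contrasts, eBayes with trend), with a Benjamini-Hochberg adjusted p under 0.05. The fit was tested on simulated data. Members and lists were chosen with earlier results of these data known. Named genes are the members, up to 4 called genes with the largest change per list and comparison, list genes that background turns on, the 5 patterns nearest to Spns2 and Ifng; genes named outside this rule (Rhoa, Sptssa, the genes lowest in YFP-) were chosen after their values were seen. The alternatives were the replicate block, only the 8 samples compared, filters, a pseudocount of 1 CPM, scalings, variance models, left-out labels and an adjusted p under 0.01. Summaries used Python 3.11.15, pandas 2.3.3 and matplotlib 3.10.9.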

Additional observations from a re-analysis of the deposited data

Results flagged for a closer look

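Among 27 sets of 4 values (9 genes in 3 groups), 1 held a sample far from the other 3, where chance gives about 1.35. It was S1pr4 in unstimulated samples: f2 had 6.84 log2 CPM (4364 reads) against 6.63 to 6.66 in the others, a gap of 0.856 of the whole range beside a critical value of 0.829. The difference is small beside the steps between groups.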

How the results depend on the processing

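Results were recomputed under 16 settings. A pseudocount of 1 CPM moved the differences from unstimulated samples of genes near the detection limit by over 1.5 times. Among them, S1pr5 went to -1.09 (YFP-) and -1.64 (YFP+), Sphk1 to 1.17 and 1.78 and S1pr3 to 2.63 and 3.52. With a filter at log2 CPM above 2 the genes called, counting S1pr5 and Sphk1, went from 5 to 3 in each comparison with unstimulated samples, because S1pr5 and Sphk1 were then not tested; otherwise the counts were 5 or 6, and leaving out a label gave no other count than 5. The Spns2 difference of YFP+ over YFP- ranged from 1.70 (without m3) to 2.28 (centring on the median). Of 26 results for single members, 20 kept their direction and side of the threshold, or stayed within 1 SD where no test was made. The 20 include those of S1pr1, which were run under 1 alternative only, no filter. That setting cannot move a log2 difference, so the stability of S1pr1 was not tested. Sphk2 in YFP+ against unstimulated changed sign without ribosomal features in the totals (-0.021). For YFP+ over YFP-, S1pr5 moved to -0.55 with a pseudocount of 1 CPM and -1.40 with quantile normalization, Klf2 to -0.98, -1.12 and -1.02 with the pseudocount, centring and quantile normalization, Sgpl1 to -0.16 and -0.18, and Sgpp1 to 0.10 and 0.16 with the last 2, which set the level of each sample. Lists called in YFP- against unstimulated moved for sphingoid base and ceramide supply (6 to 12 over all settings, 6 without m4) and for the sphingomyelin and glycolipid branch (6 with centring, 6 without ribosomal features, 5 with quantile normalization). Of 47 results for named list genes 42 kept their call in every setting. The cause of these moves was not tested.

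Same-label samples did not all deviate together (correlations of deviations from group means, across genes: -0.06 to 0.10 for YFP- with unstimulated, -0.04 to 0.38 for YFP+ with unstimulated, 0.05 to 0.37 for YFP+ with YFP-), nor did every sample correlate best with its own label, so the labels were not taken as pairs. Between YFP+ and YFP-, m2, m3 and m4 did correlate best with their own label (0.35, 0.37 and 0.17). There f2 did not (0.05 against 0.36). Whether labels are pairs is thus not settled, and same-label differences above are descriptions. With the replicate block the genes called were 6 and 5, the addition being Sphk2 in YFP- (limma adjusted p = 0.022), which was also called in a fit of only the 8 samples compared (limma adjusted p = 0.014). Depth limits S1pr1 in all groups and S1pr5 in YFP+, at 0 to 20 reads per YFP+ library.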
